A study of Homo sapiens with 6 samples.

Results

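The segment 20q11.21 of the long arm of chromosome 20 is a hotspot of copy number gain in cultured human pluripotent stem cells. The expression of 10 genes of this segment, HM13, BCL2L1, TPX2, PDRG1, TM9SF4, PLAGL2, POFUT1, KIF3B, ASXL1 and COMMD7, was compared between S6K1-/- and wild-type (WT) H7 human embryonic stem cells (hESCs). The genes were chosen by symbol, as known genes of the gained segment, and all 10 were found among the 61155 symbols of the count table. H7 is an established hESC line. It was measured here undifferentiated on Matrigel in TeSR-E8 medium, in 3 WT libraries and 3 libraries of S6K1-/- clone #1, in which exons 9 and 11 of RPS6KB1, the gene encoding the kinase S6K1, had been targeted with CRISPR/Cas9. The labels call the second group a knockdown and give both groups a time of week 5, whereas the methods describe undifferentiated knockout cells. All S6K1-/- libraries come from 1 clone, so an effect of the deletion and a property of the clone cannot be told apart, and the labels give no culture or sequencing batch.

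A gain of this segment usually arises as an extra tandem copy. It is thought to be selected because cells with more BCL2L1, which encodes the anti-apoptotic protein BCL-xL, survive passaging and stress better. Genes in a gained segment tend to rise together with their copy number. If output followed copy number, 3 copies against 2 would give a 1.5-fold higher level, or 0.58 on the log2 scale, for every gene of the segment. The question put to the counts was whether the 10 genes shared such a shift between S6K1-/- and WT hESCs. A gain present in both groups would leave no difference, and copy number itself was not measured.

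In S6K1-/- hESCs the 10 genes showed no shared rise. BCL2L1 fell by 16.9%, and it was the only member with an adjusted p under 0.001, the threshold the study used with DESeq2, taken here with the quasi-likelihood test of edgeR. Adjustment by Benjamini-Hochberg was over 19521 genes, of which 2.54% were called lower. BCL2L1 lost this call in all 6 fits with a library left out. COMMD7 changed by -15.0% and passed an adjusted p under 0.05 only, a pass it lost in 4 of 6 fits with a library left out. The other 8 genes differed by less than 8% in either direction and passed neither threshold. For all 10 genes the 95% interval of the log2 fold change ended below 0.58, the highest bound being 0.24, and began above -0.58, the lowest bound being -0.37. Of all genes tested, 87.0% also had an interval below 0.58, and of the 9606 genes at least as abundant as the lowest member 99.0% did.

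The members lie within 1.23 Mb of chromosome 20 in GRCh38, from the start of HM13 at 31514428 to the end of COMMD7 at 32743467 (GENCODE 44). All are protein-coding. RPS6KB1, the targeted gene, lies on chromosome 17. The starts of PLAGL2 and POFUT1 face away from each other across 111 bases. BCL2L1 shares 1735 bases, 41.3% of its exonic length, with the antisense transcript ABALON, and PDRG1 shares 33.9% with TTLL9 on the opposite strand. COMMD7 shares 29.4% with an unnamed protein-coding gene on its own strand, HM13 shares 700 bases with MCTS2, and POFUT1 holds MIR1825 within its exons. The strand setting of the counting is not given in the sources used here, so reads in shared bases cannot be assigned to 1 gene.

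The sequences of 3 stretches beside gene starts are shown on GRCh38.p14. The first 2 are windows before RefSeq starts, for which 8 of the 10 members had an entry. The last lies between the GENCODE starts of PLAGL2 and POFUT1, and the RefSeq window of POFUT1 ends beyond it, at 32207879. Whether these stretches regulate the genes was not tested. BCL2L1 and COMMD7 are shown as the members with the lowest log2 fold changes, and PLAGL2 and POFUT1 as the closest pair of members, which did not pass the test. Capitals mark the letters GGGCGG (the GC box) and TATAAA (the TATA motif) on either strand. The first is the 250 bases before the upstream RefSeq start of BCL2L1 on the minus strand, at chr20:31723964-31724213. The next is the 250 bases before the start of COMMD7 on the minus strand, at chr20:32743468-32743717. The last is the 111 bases between PLAGL2 and POFUT1, written on the plus strand, at chr20:32207744-32207854.
BCL2L1: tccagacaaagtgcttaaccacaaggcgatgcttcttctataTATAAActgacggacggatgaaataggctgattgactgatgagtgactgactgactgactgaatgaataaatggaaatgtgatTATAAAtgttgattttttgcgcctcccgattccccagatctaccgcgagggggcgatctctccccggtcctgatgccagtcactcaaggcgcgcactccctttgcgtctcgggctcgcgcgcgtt
COMMD7: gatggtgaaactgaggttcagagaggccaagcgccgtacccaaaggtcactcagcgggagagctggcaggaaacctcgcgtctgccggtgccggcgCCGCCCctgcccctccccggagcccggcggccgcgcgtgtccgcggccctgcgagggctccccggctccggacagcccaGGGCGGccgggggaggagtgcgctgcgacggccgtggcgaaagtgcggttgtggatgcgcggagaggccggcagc
PLAGL2 and POFUT1: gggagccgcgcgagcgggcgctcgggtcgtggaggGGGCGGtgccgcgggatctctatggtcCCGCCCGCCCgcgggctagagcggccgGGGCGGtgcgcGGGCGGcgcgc
The BCL2L1 stretch held the TATA motif 2 times and no GC box, at a GC content of 50.0%. The COMMD7 stretch held 2 GC boxes and no TATA motif, at a GC content of 74.0%. The stretch between PLAGL2 and POFUT1 held 5 GC boxes, a pair of them overlapping, and 22 CpG dinucleotides. Among 35116 windows of 250 bases before RefSeq starts, 42.6% held a GC box and 10.7% a TATA motif. The 8 members with an entry had 11 windows in all, of which 6 held a GC box and 1 held the TATA motif. BCL2L1 had 2 windows, and the one not printed held neither motif, at a GC content of 60.4%. Of the 3 windows of ASXL1, 1 held a GC box.

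Library totals ranged from 21896698 to 24473013 counts. The members had from 267 to 6950 counts per library, and all 10 passed the filter on low counts. RPS6KB1 fell by 40.6% in S6K1-/- hESCs (log2 fold change -0.75, SE 0.057), with no overlap between the groups. Levels are given as CPM, the reads of a gene scaled to a common library size after TMM scaling. The marker sums below are the exception, as they were scaled by library totals alone. The TMM factors were 1.005 to 1.011 in WT and 0.989 to 0.995 in S6K1-/- libraries. Leaving them out made the marker sums higher in WT and lower in S6K1-/- libraries than TMM-scaled sums would be. Differences are given as log2 fold changes of S6K1-/- against WT with their standard errors (SE). Pluripotent markers summed to between 7927 and 8065 CPM in WT and between 7291 and 7360 CPM in S6K1-/- libraries, all 12 were detected, and 1, DNMT3B, passed the threshold as lower. Fibroblast markers summed to 632 to 647 CPM in WT and 535 to 557 CPM in S6K1-/-, 3 of the 5 tested (COL1A1, COL1A2 and TWIST2) passed the threshold as lower, and DCN was at 0 in every library. Most of this sum was THY1, with TMM-scaled means of 488 CPM in WT and 480 CPM in S6K1-/- libraries (log2 fold change -0.02, not called). Neuroectoderm markers summed to 451 to 471 CPM in WT and 431 to 445 CPM in S6K1-/-, with PAX6 called higher (log2 fold change 0.76) and DCX lower (-0.54) by edgeR, the latter not past 0.001 in DESeq2's Wald test. Most of the neuroectoderm sum was NES, with TMM-scaled means of 442 CPM in WT and 424 CPM in S6K1-/- libraries (log2 fold change -0.06, not called). Mesendoderm markers summed to 18.8 to 23.1 and 17.5 to 18.8 CPM, and amnion and trophoblast markers to 9.16 to 10.6 and 6.44 to 6.88 CPM, with none called by edgeR and HAND1 at 0. DESeq2's Wald test called 1 of them lower, the mesendoderm marker FOXA2 (log2 fold change -0.88, adjusted p = 4.09e-04, against 0.00108 by edgeR). The mitochondrial share of counts was 9.51% and 9.74% in S6K1-/- replicates 1 and 2 and 8.54% to 8.78% in the other libraries. The part of these differences in the members' levels was not tested.

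Per kilobase of exon, TPX2 was by far the most abundant member in WT hESCs at 78.2 ± 0.214 CPM per kb (SD, n = 3). TM9SF4 (17.5), BCL2L1 (15.2), COMMD7 (12.7), PLAGL2 (9.16), HM13 (8.32), POFUT1 (7.39), KIF3B (7.18), PDRG1 (6.79) and ASXL1 (2.36 CPM per kb) followed. The WT libraries of neighbours in this order did not overlap except those of KIF3B and PDRG1. The exonic length joins all annotated transcripts of a gene, and the number of these differed, from 1 for PDRG1, PLAGL2 and KIF3B to 24 for ASXL1 and 29 for HM13.

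BCL2L1 had 63.4, 65.3 and 62.3 CPM in WT and 51.9, 54.8 and 52.0 CPM in S6K1-/- replicates 1, 2 and 3. All S6K1-/- libraries lay below all WT libraries, and the gap between the groups was wider than the spread within either. The mean fell from 63.7 ± 1.56 to 52.9 ± 1.63 CPM (SD, n = 3 per group), with a log2 fold change of -0.27 (SE 0.044, adjusted p = 6.88e-04 by edgeR). The 95% interval of this change ran from -22.1% to -11.2%. With any 1 of the 6 libraries left out the adjusted p lay between 0.00135 and 0.00741, so that the call at 0.001 rested on all libraries together, while the log2 fold change stayed between -0.29 and -0.25. ABALON, the antisense lncRNA of BCL2L1, had 18.5, 17.5 and 17.3 CPM in WT and 14.8, 14.8 and 16.1 CPM in S6K1-/- libraries. Its log2 fold change was -0.22 (SE 0.067, adjusted p = 0.0407 by edgeR). ABALON no longer passed 0.05 with any library left out (highest adjusted p = 0.153 by edgeR), with the replicate block (0.0527) or in DESeq2's Wald test (0.213). The groups did not overlap for ABALON either, and its reads and those of BCL2L1 cannot be told apart here.

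**Figure D1:**
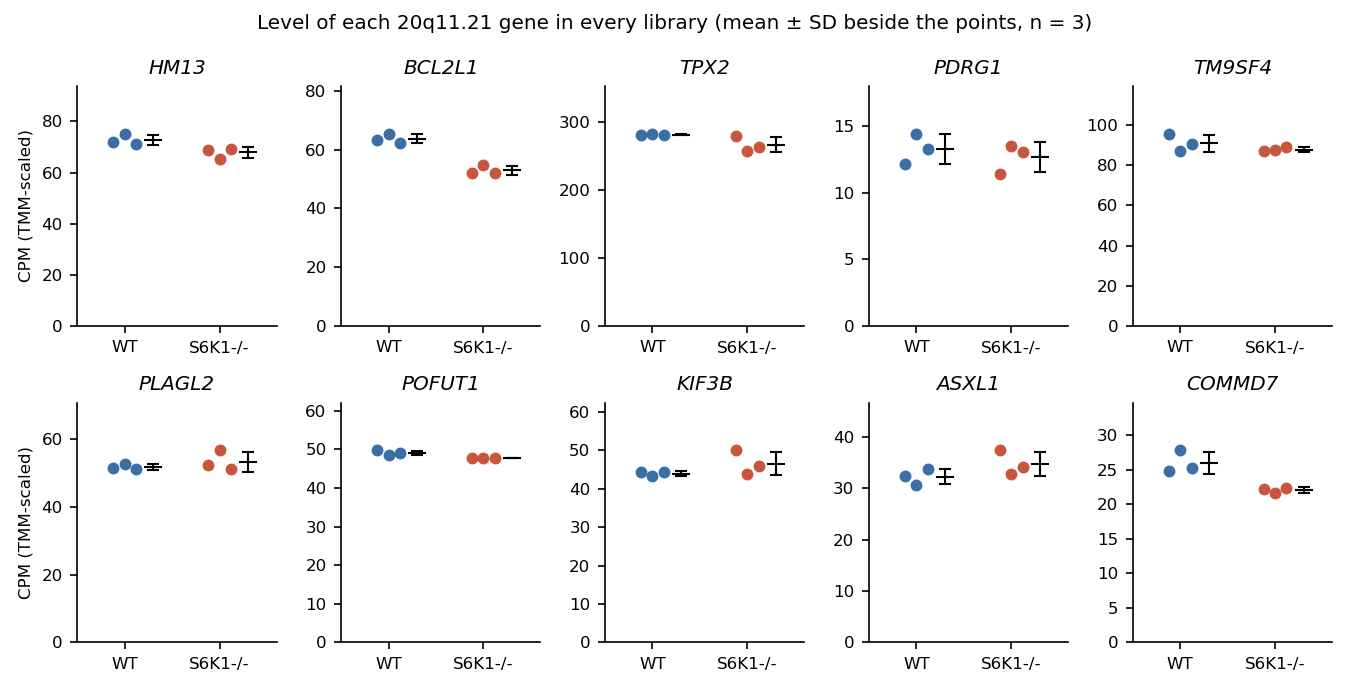
CPM of each member in the 3 WT and 3 S6K1-/- libraries, with a linear axis from 0 in each panel and the mean and SD beside the points. BCL2L1 and COMMD7 are the panels in which the S6K1-/- libraries are most clearly below WT, while KIF3B, ASXL1 and PLAGL2 overlap.

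TPX2 and KIF3B encode microtubule proteins. TPX2, which targets Aurora A kinase to the mitotic spindle, had 281, 283 and 282 CPM in WT and 279, 258 and 264 CPM in S6K1-/- libraries. The S6K1-/- libraries were all lower, but replicate 1 differed from WT by less than it differed from the other S6K1-/- libraries. The log2 fold change was -0.08 (SE 0.041, adjusted p = 0.240 by edgeR). KIF3B, a motor subunit of the kinesin-2 complex of cilia and axons, had 44.3, 43.2 and 44.2 CPM in WT and 49.9, 43.8 and 45.8 CPM in S6K1-/- libraries. Its groups overlapped, with S6K1-/- replicate 1 the highest, and the log2 fold change was 0.08 (SE 0.053, adjusted p = 0.352 by edgeR).

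ASXL1 and PLAGL2 act in the nucleus. ASXL1, a partner of the histone H2A deubiquitinase BAP1, had 32.4, 30.7 and 33.7 CPM in WT and 37.4, 32.9 and 34.2 CPM in S6K1-/- libraries. It had the highest log2 fold change of the members, 0.11 (SE 0.061, adjusted p = 0.275 by edgeR), yet the groups overlapped. PLAGL2, a zinc finger transcription factor of the PLAG family, had 51.6, 52.8 and 51.1 CPM in WT and 52.3, 56.7 and 51.1 CPM in S6K1-/- libraries. Its log2 fold change was 0.04 (SE 0.049, adjusted p = 0.643 by edgeR). PLAGL2 and POFUT1, which share the stretch of GC boxes printed above, lay on opposite sides of 0, with intervals of -0.06 to 0.15 for PLAGL2 and -0.13 to 0.05 for POFUT1.

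POFUT1, HM13 and TM9SF4 belong to the secretory route. POFUT1, which adds O-fucose to Notch receptors in the endoplasmic reticulum, had 49.7, 48.5 and 49.1 CPM in WT and 47.8, 47.7 and 47.7 CPM in S6K1-/- libraries. The groups did not overlap at means of 49.1 and 47.7 CPM, and the SD of the S6K1-/- libraries was 0.0497 CPM. The log2 fold change was -0.04 (SE 0.044, adjusted p = 0.611 by edgeR). HM13 encodes signal peptide peptidase, which cuts spent signal peptides within the membrane. It had 72.1, 75.1 and 71.2 CPM in WT and 68.9, 65.5 and 69.4 CPM in S6K1-/- libraries, without overlap, a log2 fold change of -0.10 (SE 0.043, adjusted p = 0.149 by edgeR). TM9SF4, a membrane protein of the nonaspanin family, had 95.5, 86.9 and 90.3 CPM in WT and 86.8, 87.4 and 89.1 CPM in S6K1-/- libraries. It overlapped between the groups, at a log2 fold change of -0.05 (SE 0.043, adjusted p = 0.508 by edgeR).

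COMMD7 and PDRG1 complete the list. COMMD7, a subunit of the Commander complex that returns membrane proteins from endosomes, had 24.8, 27.8 and 25.3 CPM in WT and 22.2, 21.6 and 22.3 CPM in S6K1-/- libraries. The groups did not overlap, and the log2 fold change was -0.23 (SE 0.063, adjusted p = 0.0202 by edgeR). With WT replicate 2 or any 1 S6K1-/- library left out, the adjusted p of COMMD7 lay between 0.0542 and 0.0824 by edgeR. DESeq2's Wald test gave COMMD7 an adjusted p of 0.0839. PDRG1, a small prefoldin-like protein, was the least abundant member in CPM, with 12.2, 14.4 and 13.3 CPM in WT and 11.4, 13.5 and 13.0 CPM in S6K1-/- libraries. Its log2 fold change was -0.07 (SE 0.087, adjusted p = 0.661 by edgeR), and its interval, from -0.26 to 0.11, was the widest of the members.

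**Figure D2:**
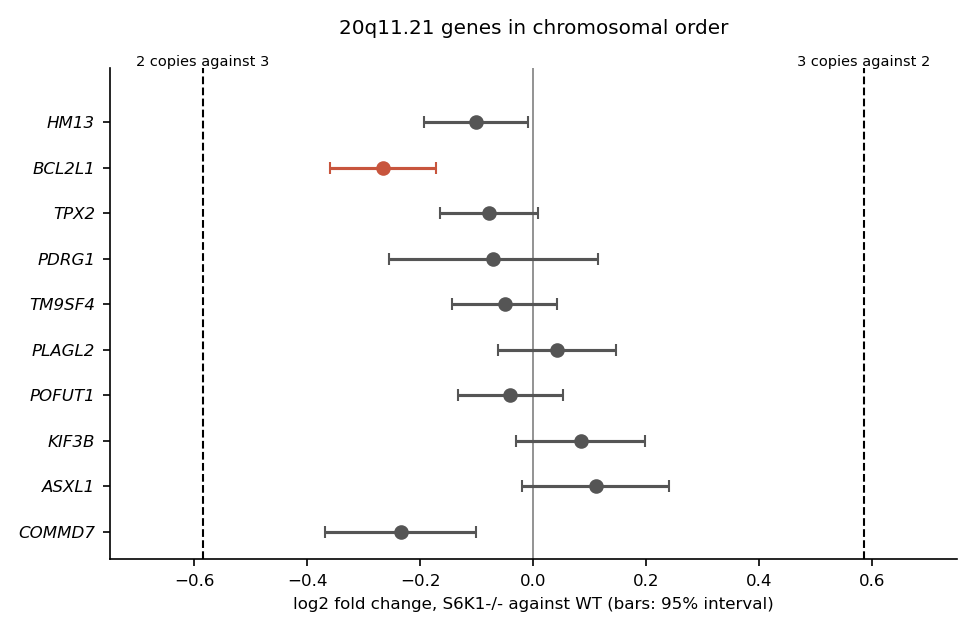
Log2 fold change of each member with its 95% interval, in chromosomal order from HM13 to COMMD7. Dashed lines mark 0.58 and -0.58, the sizes that 3 copies against 2 and the reverse would give, and none of the intervals reaches either line.

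Taking the members as a group, 1 of 10 was called lower at an adjusted p under 0.001 and none higher, where 2.54% and 1.42% of all genes tested were. At an adjusted p under 0.05 these numbers were 2 and 0, beside 8.31% lower and 5.47% higher over all genes. For 5 members, HM13, BCL2L1, TPX2, POFUT1 and COMMD7, all S6K1-/- libraries lay below all WT libraries, and for none did they lie above. Over all genes 16.7% were separated downward and 14.0% upward. Of the 10 members 7 had a log2 fold change below 0, beside 9879 of all 19521 genes tested. The median of the members was -0.06, beside -0.002 over all genes tested. The 5 members that share no exonic base with another annotated gene, TPX2, TM9SF4, PLAGL2, KIF3B and ASXL1, had a median of 0.04, and 3 of them were above 0. This subset was set after the values were known.
The summed level of the 10 genes was 727, 727 and 722 CPM in WT and 708, 682 and 688 CPM in S6K1-/- replicates 1, 2 and 3. All S6K1-/- sums were below WT, a change of -4.53% in the mean, and TPX2 made up 38.8% of the WT sum. The number of the 10 genes below their WT mean was 7, 7 and 8 in S6K1-/- and 6, 4 and 7 in WT replicates 1, 2 and 3, so that these counts overlapped between the groups.

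Besides the members, 25 symbols were placed in the same segment, of which 10 passed the filter on low counts and none was called at 0.001 by edgeR or by DESeq2. At an unadjusted p under 0.05 in edgeR 3 were lower and none was higher, beside 14.5% and 11.8% of all genes tested. Of the 10, 2, ABALON and XKR7, were lower at an adjusted p under 0.05, beside 8.31% of all genes tested. Neither passed 0.05 with the replicate block or in DESeq2's Wald test, where XKR7 had 0.0637 and 0.230, and XKR7 lost the pass in 4 of 6 fits with a library left out. XKR7, a relative of the lipid scramblase XKR8 named after its value was seen, had 6.87 ± 0.486 CPM in WT and 5.43 ± 0.300 CPM in S6K1-/- libraries (SD, n = 3 per group). ID1, an inhibitor of bHLH transcription factors and the most abundant of these neighbours, had a log2 fold change of 0.08 (SE 0.050, adjusted p = 0.323 by edgeR). NOL4L, between ASXL1 and COMMD7, had 0.09 (SE 0.055, adjusted p = 0.323 by edgeR). The median over the 10 was -0.20, with 7 below 0, and the lowest values belonged to DUSP15 (-0.55) and HM13-AS1 (-0.46), named after their values were seen, with standard errors of 0.293 and 0.341. The 15 symbols left out had at most 11 counts in any library.

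**Figure D3:**
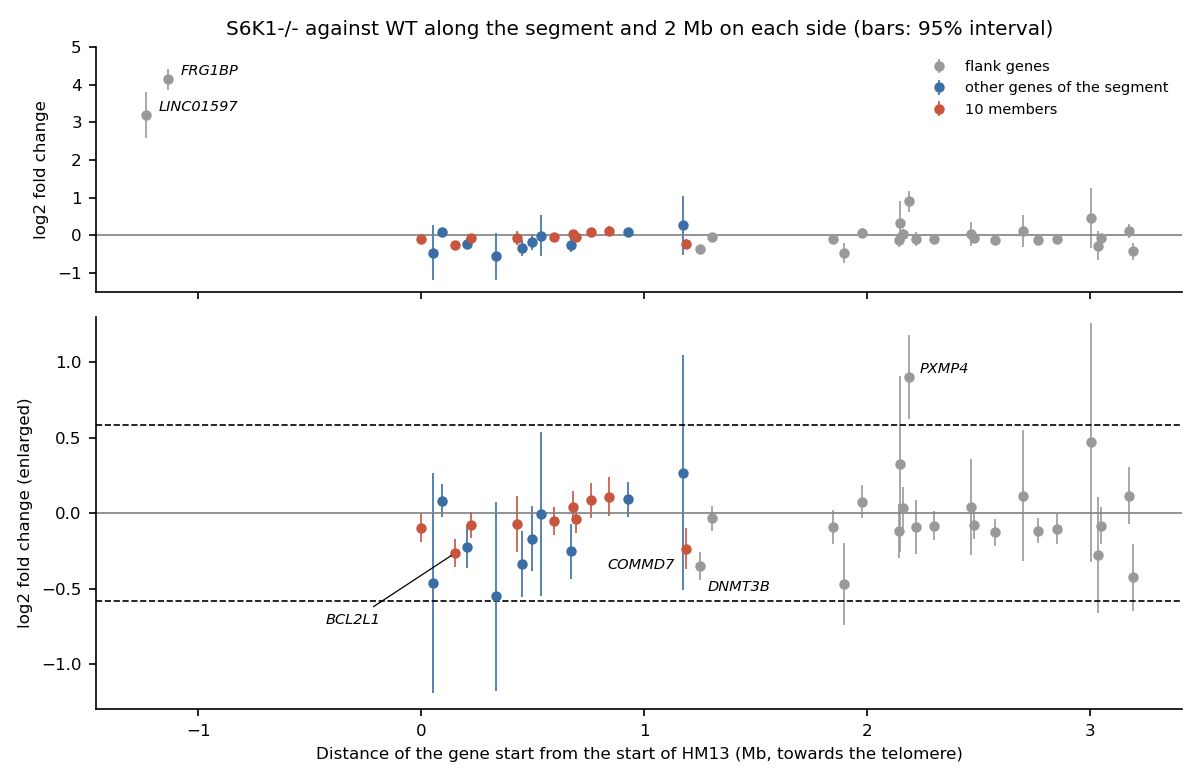
Log2 fold change and 95% interval of the members, the other tested genes of the segment and those within 2 Mb on each side, by distance of the gene start from the start of HM13 in Mb. Dashed lines mark 0.58 and -0.58. The upper panel shows FRG1BP and LINC01597 above 3, and the enlarged lower panel shows the members between -0.27 and 0.11.

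Towards the centromere, only 2 of 26 symbols within 2 Mb were tested, and both were higher in S6K1-/- hESCs. FRG1BP, a pseudogene of the FRG1 family, lies 1.14 Mb before HM13 and had 18, 26 and 16 counts in WT and 357, 347 and 320 counts in S6K1-/- libraries. Its log2 fold change was 4.15 (SE 0.131, adjusted p = 1.07e-11 by edgeR). LINC01597, a lncRNA 1.24 Mb before HM13, had 7, 3 and 8 counts in WT and 51, 53 and 57 counts in S6K1-/- libraries, a log2 fold change of 3.20 (SE 0.281, adjusted p = 1.32e-06 by edgeR). LINC01597 passed the filter on low counts only through the S6K1-/- libraries, and it was left out when 10 counts were required in every library. FRG1BP has near-identical copies elsewhere in the genome, so the origin of its reads is uncertain. The fitted folds were 17.7 for FRG1BP and 9.16 for LINC01597, and HM13, the nearest member, had a log2 fold change of -0.10.
Towards the telomere, 22 genes were tested within 2 Mb of the end of COMMD7. DNMT3B, which encodes a de novo DNA methyltransferase of pluripotent cells, starts 18.9 kb beyond COMMD7 and was the most abundant gene of the region. It fell from 1412 ± 16.3 to 1106 ± 48.5 CPM (SD, n = 3 per group), with a log2 fold change of -0.35 (SE 0.044, adjusted p = 4.88e-05 by edgeR). PXMP4, a peroxisomal membrane protein, rose from 3.50 ± 0.330 to 6.55 ± 0.973 CPM (SD, n = 3 per group), with a log2 fold change of 0.90 (SE 0.131, adjusted p = 2.09e-04 by edgeR). PXMP4 lost the call when WT replicate 1 was left out (adjusted p = 0.00130 by edgeR) and when S6K1-/- replicate 3 was (adjusted p = 0.00140). The median over the 22 genes was -0.08, with 14 below 0. COMMD7 and DNMT3B, the neighbours at this end, both had intervals wholly below 0. Of all genes tested, 14.5% were lower at an unadjusted p under 0.05 by edgeR. MAPRE1, the next gene tested beyond DNMT3B, had -0.03 (interval -0.12 to 0.05), and NOL4L, on the other side of COMMD7, had 0.09.

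For the short arm of chromosome 20, taken as genes that start before 25 Mb, the median log2 fold change was -0.02 over 135 genes. Beyond the telomere-side flank it was -0.01 over 268 genes. The other segments known for recurrent gain in stem cell cultures were read the same way. The median was -0.03 over 685 genes of the long arm of chromosome 1, -0.01 over 218 genes of the short arm of chromosome 12 (before 33 Mb) and 0.003 over 633 genes of the long arm of chromosome 17 (after 28 Mb). The medians of 23 chromosomes lay between -0.03 and 0.02.

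Proteins that work with the members or resemble them were listed by member, 94 in all, of which 88 were tested. At an adjusted p under 0.001, 1 of the 88 was higher and none was lower, and at 0.05 the numbers were 6 and 4. Over all genes tested 1.42% were higher and 2.54% lower at 0.001, and 5.47% and 8.31% at 0.05. Of these 10 genes, BOK, FOXK1, DLL3 and KIF17 passed 0.05 with every library left out in turn, and the other 6 did not. KIF17 did not pass 0.05 in DESeq2's Wald test (adjusted p = 0.0874), nor did KIF3A (0.157). The gene called by edgeR was BOK, a pro-apoptotic relative of BCL2L1, which rose from 49.2 ± 0.684 to 87.2 ± 3.23 CPM (SD, n = 3 per group), with a log2 fold change of 0.83 (SE 0.044, adjusted p = 3.95e-09 by edgeR). Of the other 13 BCL2 family genes tested, 10 were below 0 and none was called, where 9879 of all 19521 genes tested were below 0. Among the 12 spindle partners of TPX2, KIF15, a mitotic kinesin, had the smallest p, at a log2 fold change of 0.25 (adjusted p = 0.0110). Of 26 further mitosis genes none was called at 0.001 by edgeR, while BUB1 (log2 fold change -0.19, adjusted p = 0.00620) and TOP2A (0.14, adjusted p = 0.0282) passed 0.05. TOP2A lost this pass in 4 of 6 fits with a library left out. DESeq2 called none of the 26 either, and at an unadjusted p under 0.05 in edgeR 5 were higher and 1 was lower, beside 11.8% and 14.5% of all genes tested. CENPE had 0.16 (adjusted p = 0.0655). The median over the mitosis genes was 0.04, against the -0.08 of TPX2.
For the Notch-related genes listed with POFUT1, 3 of 14 (DLL3, LFNG and RBPJ) were lower and 2 (NOTCH2 and HES1) were higher at an adjusted p under 0.05, where 8.31% and 5.47% of all genes were. The ligand DLL3 had the smallest p of them, at -0.48 (adjusted p = 0.00404), and LFNG the lowest value, at -0.54. Of the partners of ASXL1, 9 of 10 were above 0 with a median of 0.11, where 9642 of all 19521 genes tested were above 0. FOXK1, a forkhead factor bound by BAP1, had 0.29 (adjusted p = 0.00170 by edgeR). DESeq2's Wald test called FOXK1 higher at 0.001 (adjusted p = 5.30e-04). Of the kinesin-2 genes, KIF17, a homodimeric motor, had -0.44 (adjusted p = 0.00992), and KIF3A, the partner subunit of KIF3B, had 0.19 (adjusted p = 0.0414, above 0.05 with any library left out). KIF3A and the Notch-related genes other than DLL3 were named after their values were seen. None of the 14 other Commander and COMMD genes passed 0.05, their median was 0.02, and COMMD4 had the smallest p at 0.16 (adjusted p = 0.101). The lowest of these 14 was at -0.12, above the -0.23 of COMMD7. The smallest p among the relatives of HM13, PDRG1, TM9SF4 and PLAGL2 belonged to RNF139 (-0.14), PIH1D1 (0.10), TM9SF1 (-0.32) and PLAG1 (0.03), with adjusted p from 0.133 to 0.872.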

How the data were processed

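Bulk RNA sequencing covered 3 WT and 3 S6K1-/- libraries of undifferentiated H7 hESCs, made with a stranded poly(A) kit. Per the methods and the submitters' processing notes, the authors trimmed reads with Trim Galore 0.6.5, aligned them to GRCh38 with Bowtie2 2.4.5, which does not align across splice junctions, processed alignments with Sambamba and counted reads per gene with featureCounts. The counts were deposited as whole numbers without normalization, with totals from 21896698 to 24473013 per library. The annotation release and strand setting are not given in the sources used here. The authors' deposited comparison table, with fold changes and p-values per gene, was not used.

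Genes were kept with filterByExpr (19521 of 61155) and compared with edgeR 4.0.16 in R 4.3.3 by the quasi-likelihood F test after TMM scaling, on genotype alone. Benjamini-Hochberg adjustment ran over all genes tested, at a threshold of 0.001, which the authors used with DESeq2 1.37.4. Intervals are 95% from the same fit. GENCODE 44 gave positions for 36797 symbols directly and for 668 by way of older RefSeq names, which placed 15921 tested genes. The steps were tested on simulated data.

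The members, lists and naming rule were chosen with earlier results of these data known. The rule named all members, RPS6KB1, called genes of the segment, flanks and lists, the 3 most abundant neighbours in the segment, the smallest p per partner list and the 3 smallest among the mitosis genes. No replicates agreed within sampling noise: between them the chi-square of the counts was 2.24 to 4.48 times its degrees of freedom. Whether they are separate cultures is not stated, so that p-values measure the spread between these libraries only. Alternatives were other scalings, filters, thresholds and tools (DESeq2 1.42.0), the replicate number as a block and each library left out.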

Additional observations from a re-analysis of the deposited data

How the results depend on the processing

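The count of members called at 0.001 was 1 under DESeq2's size factors, library totals, the replicate block, DESeq2's Wald test and both filters on low counts, and 0 with any library left out (range 0 to 0), since BCL2L1 alone stood past the threshold. It was 2 at an adjusted p under 0.05 and 0 among the members without shared exons. The median of the members was -0.082 with library totals, -0.052 with DESeq2's Wald test, -0.062 to -0.041 with a library left out and 0.042 for the members without shared exons. Over all genes the median was -0.023 with library totals and 0.014 with DESeq2's Wald test, beside -0.002 as reported. With the replicate number as a block the median of the members was -0.061, and their summed level differed by -40.0 to -26.9 CPM with a library left out. Left-out libraries gave PDRG1 from -0.12 to 0.0018 and PLAGL2 from -0.0032 to 0.079, and the sign turned for PDRG1 without S6K1-/- replicate 1 and for PLAGL2 without S6K1-/- replicate 2. Over all genes, 1573 were called without the filter and 2689 at 0.05, beside 774 as reported, and 501 to 680 with a library left out (501 without S6K1-/- replicate 3). The other genes of the segment held 2 calls at 0.05. Partners and paralogs held 2 with DESeq2's Wald test, 7 without the filter, 10 at 0.05 and 1 to 2 with a library left out. Mitosis genes held 2 both without the filter and at 0.05. The cause of these changes was not tested.

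Replicate numbers were not taken as pairs in the main fit. In their deviations from the group means, libraries of the same number correlated at 0.20, 0.10 and 0.08. Those of different numbers correlated at -0.25 to 0.13. These values do not settle whether the numbers mark pairs. The block left 664 genes called over all genes, and BCL2L1 stayed past the threshold (adjusted p = 9.45e-04 from edgeR). Scaling without chromosome 20 was added after seeing the data.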
